A study of Penicillium oxalicum with 114 samples.

Results

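The transcriptome of dClrB, a strain of the filamentous fungus Penicillium oxalicum that lacks the clrB gene, was compared with that of the control strain Ku70 after 24 h on an inducing carbon source. The comparison rested on 12 of the 114 RNA-seq libraries of the series. The dClrB group held the 3 libraries labelled as this mutant on that carbon source, named F, S and T. The Ku70 group held 9 libraries of the same shallow kind of table, named F, S, T and 2 to 7. Ku70 libraries 8 to 10 carry the same label but were left out because they hold almost no cellulase counts, which is a measured outcome. Values with these 3 libraries are therefore given beside the main ones. Ku70 libraries 11 to 22, from much deeper tables, were also left out.

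In both groups mycelium had been moved for 24 h into liquid medium that the protocol describes as 2% Avicel, a microcrystalline cellulose. Ku70 lacks the KU70 gene, which acts in non-homologous end joining, and the labels name it as the control strain. The labels do not say whether dClrB lacks KU70 as well, and the protocol text of the dClrB libraries speaks of Ku70 mycelium. The labels do not say either whether dClrB is a single clone or whether the libraries of a group came from separate cultures. The p-values thus measure only the spread between these libraries, which may be technical. Further groups served for side-by-side values. These were dPOX04420, a deletion mutant of another gene with the same carbon source and time (n = 3), dClrB and Ku70 on medium labelled AV, for Avicel, at 12 h and at 36 h (n = 3 each), dClrB grown for 72 h without transfer (n = 3) and the wild type HP7-1 grown for 72 h on glucose without transfer (n = 3).

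ClrB belongs to the zinc-cluster transcription factors and is known to switch on cellulase genes in Aspergillus and Penicillium. Cellulases are secreted enzymes that cut cellulose into cellobiose and glucose, and xylanases cut the xylan chains of hemicellulose. Filamentous fungi transcribe such genes strongly on cellulose and little on glucose. The series was designed to find genes whose transcript levels follow the cellulase and xylanase genes. Genes carry only their POX identifiers here, because 0 of them matched the reference table as spelled. Locus tags of its protein-coding genes carry an extra letter before the number, and the numbers were not equated. The cellulase list of 9 and the xylanase list of 4 identifiers were those so named in an earlier account of this series.

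The 12 libraries totalled 3376236 to 3660484 counts in dClrB and 2131649 to 4242956 counts in Ku70. No pair within a group agreed to counting noise. The chi-square over genes, divided by its degrees of freedom, ran between 44.5 and 131 for dClrB pairs and between 5.02 and 75.2 for Ku70 pairs. Library F stood apart within dClrB. The correlation of F with S and T across genes was 0.857 and 0.878, against 0.95 between S and T (Pearson's r of log2 CPM, as a description). Within Ku70, libraries 3, 5 and 6 were closer to each other (0.972 to 0.986) than to the other 6 (0.891 to 0.949). CPM is a gene's count scaled to a common library total, and log2 fold changes are dClrB over Ku70. A gene was called when it changed by 1 or more on the log2 scale, either way, and its adjusted p lay below 0.05, with edgeR's quasi-likelihood test and Benjamini-Hochberg adjustment over all 8431 genes tested. Whether fewer cells of a kind or less RNA per cell underlies a lower level cannot be told apart in such bulk samples.

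Of the cellulase genes, 8 of 9 were lower in dClrB, beside 4.31% of all genes tested. Ku70 8 to 10 were left out for their low cellulase counts, so the counts and p-values of both gene lists depend on that choice. With those libraries added, 5 of 9 cellulase genes were called lower. In the main fit the 9 genes had a median log2 fold change of -7.77, against -0.005 for all genes. POX04786 had 6.83, 41.8 and 12.5 CPM in dClrB F, S and T, against 23421 to 33067 CPM in Ku70 with a median of 27119. It fell by 10.63 on the log2 scale (SE 0.62, edgeR adjusted p = 6.8e-08), the largest fall of the list. POX01166 had 36.3, 47.1 and 24.2 CPM in dClrB, against 15463 to 19470 CPM in Ku70 with a median of 17779. The 9 Ku70 libraries lay close together there, and the gene fell by 9.08 (SE 0.37, edgeR adjusted p = 2.29e-09). POX05587 had 45.6, 192 and 82.2 CPM in dClrB, against 21968 to 34081 CPM in Ku70 with a median of 25306, and fell by 8.19. These 3 genes held most of the cellulase transcript of Ku70. All 9 genes together took 0.0629%, 0.162% and 0.084% of the counts of dClrB F, S and T, against 7.59% to 9.96% in Ku70.

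The pair of neighbouring identifiers POX05570 and POX05571 fell by 8.35 and 7.77. POX05570 was at 4.1, 22.2 and 9.44 CPM in dClrB and at 2541 to 4601 CPM in Ku70. POX05571 was at 12.8, 47.1 and 20.8 CPM in dClrB and at 4165 to 6701 CPM in Ku70. In every listed cellulase gene except POX01166, library F was the lowest and library S the highest of the dClrB libraries. POX07535 had 6.01, 24.6 and 12.8 CPM in dClrB and 407 to 1006 CPM in Ku70, and fell by 5.63 (SE 0.50). POX03641 had 39.3, 68.4 and 62.5 CPM in dClrB and 1603 to 2735 CPM in Ku70, and fell by 5.40 (SE 0.25).

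The other cellulase genes stood apart from this pattern in size. POX02740 had 166, 189 and 168 CPM in dClrB, against 197 to 671 CPM in Ku70 with a median of 420. It fell by 1.54 (SE 0.36, edgeR adjusted p = 0.00836), and the ranges did not overlap although the nearest libraries differed little. POX06835 was not called, with a log2 fold change of 0.68 (SE 0.27, edgeR adjusted p = 0.0955). It had 312, 985 and 447 CPM in dClrB, against 164 to 406 CPM in Ku70 with a median of 335, so that dClrB F lay within the Ku70 range and S and T above it. Set per transcript length as FPKM, POX06835 and POX02740 were the highest cellulase genes of dClrB, at 230 ± 141 and 190 ± 15.1 FPKM (SD, n = 3). POX04786 was the lowest there at 15.3 ± 14.1 FPKM. In Ku70 POX06835 was the lowest of the 9 at 123 ± 29 FPKM and POX02740 the next at 505 ± 191 FPKM, while POX04786 led at 20466 ± 2528 FPKM (SD, n = 9).

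**Figure D1:**
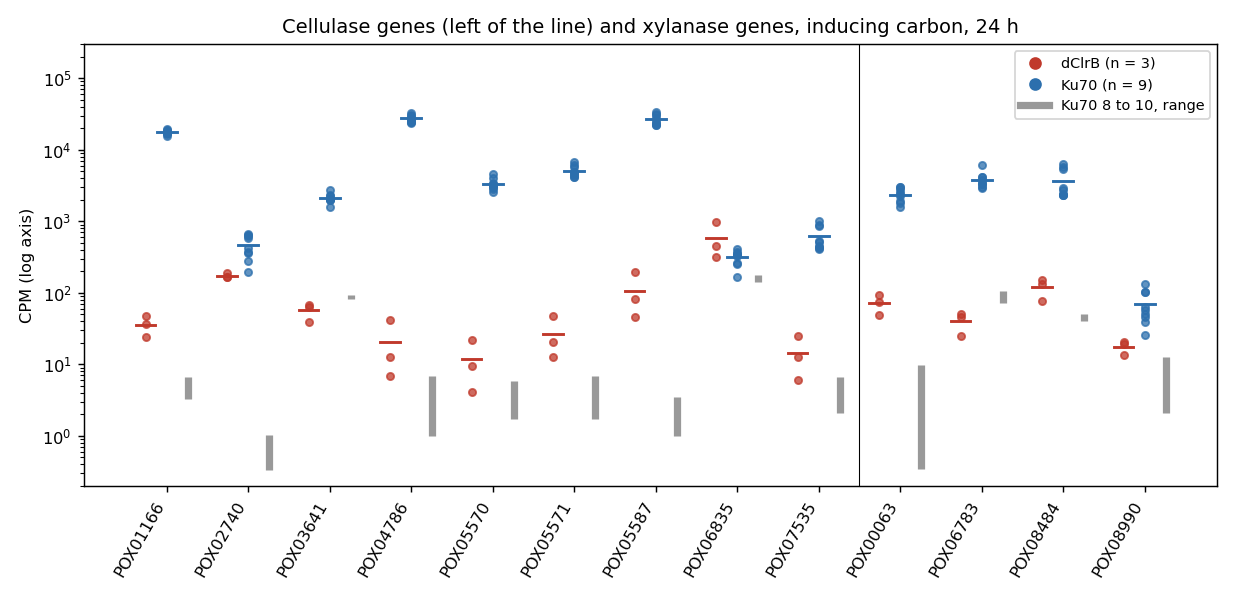
CPM on a log axis of the 9 cellulase genes (left of the line) and the 4 xylanase genes. Points are libraries of dClrB (red, n = 3) and Ku70 (blue, n = 9) with the group mean as a bar, and grey bars give the range of Ku70 libraries 8 to 10. The dClrB points lie below all blue points in 12 of the 13 genes and overlap them in POX06835.

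All 4 xylanase genes were lower in dClrB, with a median log2 fold change of -5.08. POX06783 had 46.2, 51.2 and 24.7 CPM in dClrB, against 2871 to 6157 CPM in Ku70 with a median of 3428, and fell by 6.66 (SE 0.42, edgeR adjusted p = 1.08e-07). Its highest Ku70 value, in library 2, stood well above the next at 4199 CPM. POX00063 had 93.2, 48.6 and 75 CPM in dClrB and 1584 to 2997 CPM in Ku70, and fell by 5.12 (SE 0.40). POX08484 had 132, 150 and 75.8 CPM in dClrB and 2295 to 6302 CPM in Ku70, and fell by 5.04 (SE 0.54). POX08990 was low in both strains, at 20.5, 13.3 and 19.4 CPM in dClrB and 25.3 to 131 CPM in Ku70, and fell by 2.06 (SE 0.48, edgeR adjusted p = 0.00819). The groups did not overlap in any of the 4, beside 3.43% of all genes tested whose dClrB values all lay below the Ku70 range. Both list counts, 8 and 4, held without any 1 of the 12 libraries.

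These counts rest on which Ku70 libraries serve as controls. The summed cellulase level was 629, 1617 and 840 CPM in dClrB F, S and T. It was 236 to 290 CPM in Ku70 8 to 10 and 75918 to 99560 CPM in the 9 Ku70 libraries of the main fit. The deep Ku70 libraries 11 to 22 lay between dClrB and those 9, at 13149 to 53517 CPM. Ku70 8 to 10 thus lay below dClrB. With these 3 added, 5 of 9 cellulase and 1 of 4 xylanase genes were called lower, beside 2.49% of all genes tested. POX01166, POX03641, POX04786, POX05570 and POX05571 kept a call, with edgeR adjusted p of 0.0423, 0.0124, 0.0404, 0.0333 and 0.0488, and POX06783 did at 0.0113. POX05587 (-7.78, edgeR adjusted p = 0.0859), POX07535 (-5.22, 0.057) and POX02740 (-1.12, 0.658) did not pass. Nor did POX00063 (-4.70, 0.136), POX08484 (-4.63, 0.0617) and POX08990 (-1.68, 0.282). The medians were then -7.36 and -4.66, and all 12 genes stayed lower in dClrB by the fit. With all 24 Ku70 libraries, the deep ones included, 6 of 9 cellulase and 3 of 4 xylanase genes were called lower. Of all 8549 genes tested in that fit, 284 were called lower.

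Across the transcriptome 1097 of 8431 genes were called (13%), of which 734 were higher in dClrB (8.71%) and 363 lower (4.31%). The CPM ranges of the groups did not overlap in 67.2% of the 734 and 68.3% of the 363. Over all genes tested, called or not, the dClrB range lay wholly above that of Ku70 in 10.4%. Higher genes had a median log2 fold change of 1.75 and lower genes one of -1.83. The listed cellulase genes other than POX02740 and POX06835 thus lay far out among the lower ones. With Ku70 8 to 10 added, 834 of 8435 genes were called (9.89%), 624 higher (7.4%) and 210 lower (2.49%). They included 578 of the 734 higher genes and 196 of the 363 lower genes.

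**Figure D2:**
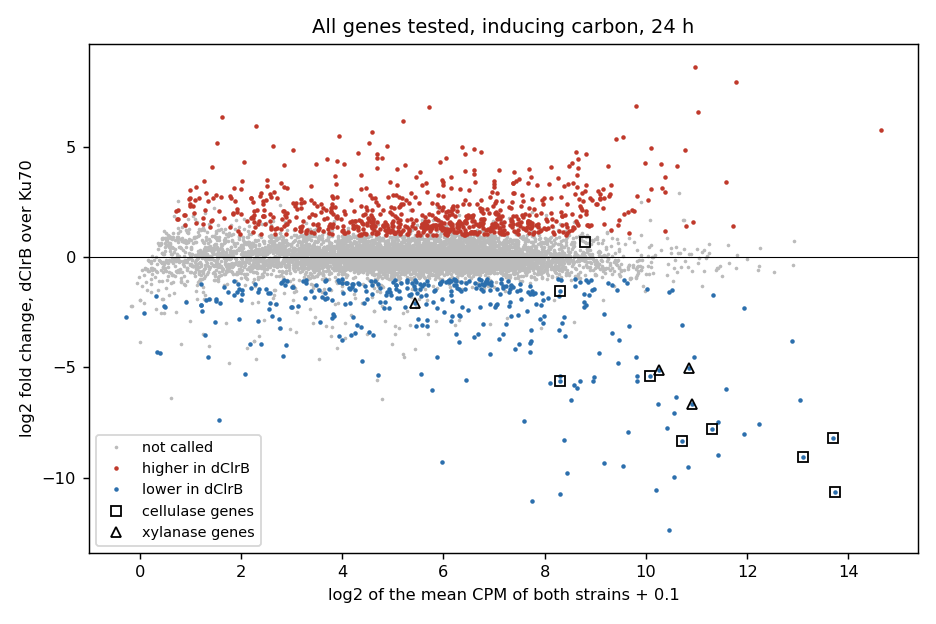
Log2 fold change of dClrB over Ku70 for all 8431 genes tested against log2 of the mean CPM of both strains plus 0.1, with called genes in red (734 higher) and blue (363 lower). Squares mark the 9 cellulase genes and triangles the 4 xylanase genes, which lie at the abundant end of the lower genes except for POX06835, POX02740 and POX08990.

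The most abundant transcripts changed identity. By mean FPKM, which sets reads per length, the 10 leading genes of dClrB and the 10 of Ku70 shared 3, POX05554, POX01105 and POX02073, none of which was called. POX00089 led in dClrB with 40646 ± 14578 FPKM (SD, n = 3), against 719 ± 271 FPKM in Ku70 (SD, n = 9). In counts it held 66247, 30501 and 53728 CPM in dClrB F, S and T, more than any other gene in each of them. Ku70 had 505 to 1399 CPM of it with a median of 716, and the log2 fold change was 5.75 (SE 0.36, edgeR adjusted p = 9.82e-08). In Ku70 the leading gene by FPKM was POX09358, at 1911 ± 1139 FPKM in dClrB and 22618 ± 7446 FPKM in Ku70, which fell by 3.78 (SE 0.45). POX06051, also among the leading genes of Ku70, fell by 6.49 (SE 0.37). It was at 244, 218 and 134 CPM in dClrB and 12210 to 18328 CPM in Ku70. With Ku70 8 to 10 added, POX06051 was not called (-6.08, edgeR adjusted p = 0.0921), whereas POX09358 was (-3.43, 0.0186).

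The genes with the largest falls reached almost no counts in dClrB. POX06601 had 0, 3 and 3 counts in dClrB F, S and T, against 2012 to 3507 CPM in Ku70 with a median of 2836. The pooled counts per library total were 5011 times higher in Ku70 (95% interval 2302 to 13655, exact, counting error only). That ratio depends on leaving out Ku70 8 to 10, which had only 1.74 to 2.08 CPM of POX06601. With these libraries added, POX06601 was still called lower (-11.96, edgeR adjusted p = 0.0113). POX01960 had 1, 1 and 0 counts in dClrB, against 331 to 541 CPM in Ku70 with a median of 429, a ratio of 2299 (95% interval 636 to 18983). Over the series POX01960 reached at most 3.49 CPM in all 24 dClrB libraries and at least 13.3 CPM in all 90 others, and Ku70 8 to 10 had 82.6 to 91.7 CPM of it. No gene was under 1 CPM in all dClrB libraries and at 5 CPM or more in every other one. The labels name no identifier for clrB, so whether POX01960 is the deleted locus was not tested.

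Among the 10 genes named for the largest falls, 7 others shared a further pattern. These were POX02054, POX02055, POX02605, POX06307, POX06308, POX07864 and POX07865. POX02054 had 0, 0.592 and 0.555 CPM in dClrB, against 283 to 1149 CPM in Ku70, and fell by 10.75 (SE 0.72, edgeR adjusted p = 2.09e-07). POX06307 had 1.09, 3.85 and 0.278 CPM in dClrB, against 777 to 4135 CPM in Ku70, and fell by 10.57 (SE 1.02). POX02605 had 0.82, 6.22 and 3.61 CPM in dClrB, against 834 to 5467 CPM in Ku70, and fell by 9.95 (SE 1.03). In none of the 7 did any dClrB library exceed 11.6 CPM. Unlike the cellulase genes, these were abundant in Ku70 8 to 10. POX06308 had 1.09 to 3.05 CPM in dClrB and 8382 to 9860 CPM in Ku70 8 to 10. POX07865 had 1.64 to 11.6 CPM in dClrB and 1001 to 2024 CPM in Ku70 8 to 10. They were abundant on glucose in HP7-1 too, with POX07865 at 4572 to 12187 CPM and POX02605 at 1998 to 6339 CPM. All 7 were called with Ku70 8 to 10 added, with log2 fold changes of -9.24 to -10.85 for these genes and -10.63 for POX02054.

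**Figure D3:**
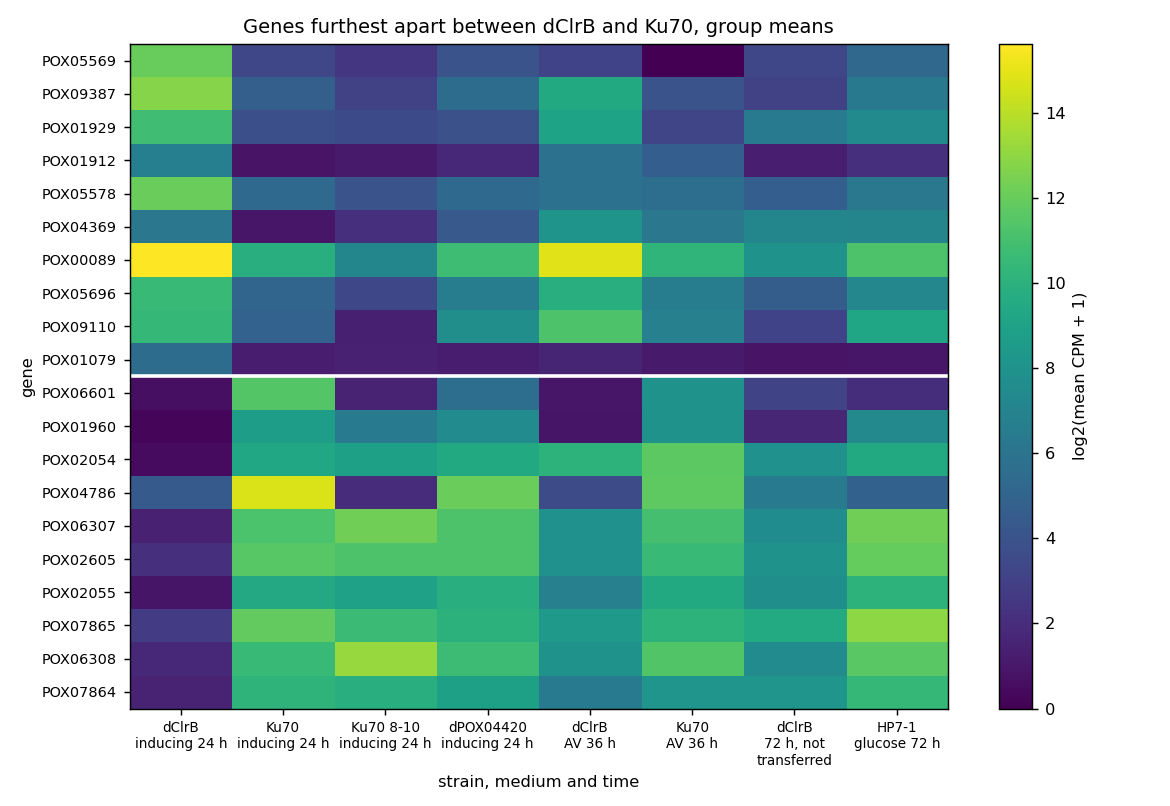
Group means as log2(CPM + 1) of the 10 genes named for the largest rises (above the white line) and the 10 named for the largest falls, in 8 groups. The dClrB column on the inducing carbon is dark below the line. In the other columns the cellulase gene POX04786 and POX06601 are dark in Ku70 8 to 10 and on glucose, where POX02054, POX06307 and POX07865 are not.

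Several of these genes lay in runs of neighbouring identifiers that moved together. There were 12 runs of 4 or more tested identifiers, each at most 2 numbers from the next and all called one way, with 38 genes in 9 lower runs and 12 genes in 3 higher runs. Every gene was called also without each dClrB library in 4 of the 12 runs, those starting at POX03927, POX04406, POX06306 and POX07862. Every gene was called with Ku70 8 to 10 added in 5 of the 12, those starting at POX02054, POX03857, POX04406, POX06306 and POX07862. Whether neighbouring numbers are neighbours on a chromosome could not be read from the files. The run POX07862 to POX07865 had the largest median fall, 9.31. Its summed level was 4.1, 29.6 and 29.7 CPM in dClrB F, S and T, against 4218 to 15718 CPM in Ku70 with a median of 12293. The run POX06306 to POX06309 summed to 59.8, 139 and 105 CPM in dClrB, against 1846 to 7752 CPM in Ku70. Its inner genes POX06307 and POX06308 had log2 fold changes of -10.57 and -9.48 and its outer genes POX06306 and POX06309 of -3.05 and -3.56. The run POX04406 to POX04409 summed to 43.2, 91.8 and 246 CPM in dClrB, against 3172 to 7334 CPM in Ku70, and library T was the highest of the dClrB libraries there. POX05512 dominated a run from POX05510 to POX05513, at 7.65, 60.4 and 3.05 CPM in dClrB and 782 to 1192 CPM in Ku70. It fell by 5.61 (SE 0.74).

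The run POX03927 to POX03931 was low in Ku70 8 to 10 as well. Its 5 genes fell by 3.54 to 6.04, and their sum was 21.9, 58.9 and 19.2 CPM in dClrB, against 776 to 2161 CPM in Ku70. All 5 were also called lower in dClrB on AV at 12 h and at 36 h, beside 1.19% and 3.24% of all genes tested. No other run had every gene called on AV at both times. The runs starting at POX02830, POX03857 and POX05510 had 0 genes called there at either time. POX03930 had 1.91, 30.5 and 4.72 CPM in dClrB and 309 to 767 CPM in Ku70, and POX03931 had 14.2, 19.5 and 10.6 CPM in dClrB and 358 to 1139 CPM in Ku70. In Ku70 8 to 10 they stood at 11.9 to 13.2 and 7.29 to 11.1 CPM. With those libraries added 4 of the 5 were called, and POX03927 was not (-4.95, edgeR adjusted p = 0.0544). Within the run POX08895 to POX08898, POX08897 carried almost all counts. It had 1.37, 17.8 and 4.16 CPM in dClrB and 1090 to 2333 CPM in Ku70, and fell by 7.94 (SE 0.66).

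Of the genes higher in dClrB, POX05569 and POX09387 led. POX05569 had 2786, 2412 and 6835 CPM in dClrB, against 3.75 to 14.7 CPM in Ku70, a log2 fold change of 8.62 (SE 0.37, edgeR adjusted p = 4.34e-09). POX09387 had 4682, 3400 and 12863 CPM in dClrB, against 8.91 to 48.3 CPM in Ku70, a log2 fold change of 7.93 (SE 0.46). Both were highest in library T. POX01929 had 774, 3134 and 1449 CPM in dClrB and 2.35 to 23.4 CPM in Ku70 (6.87, SE 0.47), and here library S was highest. POX05578 spread most widely among the leading genes of high abundance, at 2719, 750 and 8977 CPM in dClrB and 29.4 to 48.3 CPM in Ku70 (6.57, SE 0.45). It closes the run POX05575 to POX05578, whose 4 genes all rose. In that run POX05575 and POX05576 were highest in library S, at 3241 and 238 CPM, while POX05577 and POX05578 were highest in T, at 612 and 8977 CPM.

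POX09110 rose by 5.35 (SE 0.60) and was the most even of the leading genes, at 1137, 1331 and 1501 CPM in dClrB and 7.98 to 75.7 CPM in Ku70. POX05696 rose by 5.45 (SE 0.36), with 2717, 737 and 923 CPM in dClrB and 25.2 to 44.1 CPM in Ku70. POX01912 rose by 6.83 (SE 0.41), with 65.8, 59.8 and 186 CPM in dClrB and 0 to 1.65 CPM in Ku70. POX04369 rose by 6.19 (SE 0.62), with 73.8, 22.5 and 120 CPM in dClrB and 0 to 2.4 CPM in Ku70. The last of the 10, POX01079, owed its log2 fold change of 5.18 largely to library F, at 120, 5.04 and 8.61 CPM in dClrB and 0.6 to 2.55 CPM in Ku70. Without F its log2 fold change was 2.11 (edgeR adjusted p = 0.00257). All 10 were called with Ku70 8 to 10 added, with log2 fold changes of 5.11 to 8.83.

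Identifiers next to the listed genes were looked at within 2 numbers on either side. Of 42 such genes tested, 5 were higher and 7 lower in dClrB, beside 8.71% and 4.31% of all genes tested. The higher count is near that background. POX08485, which follows the xylanase gene POX08484, had 34.7, 82.9 and 53.6 CPM in dClrB and 7545 to 13382 CPM in Ku70, and fell by 7.57 (SE 0.36, edgeR adjusted p = 8.98e-09). POX08486, the next number, rose by 2.00 (SE 0.22), at 322, 440 and 603 CPM in dClrB and 72.5 to 156 CPM in Ku70. POX02739, beside POX02740, fell by 4.34 (SE 0.39), at 22.9, 73.5 and 80.5 CPM in dClrB and 634 to 1518 CPM in Ku70. POX07536, beside POX07535, fell by 4.29 (SE 0.68), at 26.5, 16.9 and 21.9 CPM in dClrB and 167 to 890 CPM in Ku70. With Ku70 8 to 10 added, POX08485, POX02739 and POX07536 were not called (edgeR adjusted p = 0.0669, 0.16 and 0.0823). POX05569, the gene with the largest rise, precedes the cellulase genes POX05570 and POX05571 in the numbering, so 3 consecutive identifiers held 1 large rise and 2 large falls.

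The genes deleted in other mutants of the series mostly did not differ. POX01167 had 284, 263 and 215 CPM in dClrB and 190 to 223 CPM in Ku70 (log2 fold change 0.19, SE 0.15, edgeR adjusted p = 0.419). POX02968 (0.19, edgeR adjusted p = 0.557) and POX04420 (0.56, 0.281) were not called either. POX07277 was higher (1.41, SE 0.40, edgeR adjusted p = 0.0244), at 164, 63.1 and 86.6 CPM in dClrB and 20.2 to 88 CPM in Ku70. That call was not made without library F (0.69, edgeR adjusted p = 0.321) nor with Ku70 8 to 10 added (1.21, 0.0586).

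On AV the same strains had their own controls and another kind of table. In dClrB 591 of 8147 genes were called at 36 h (7.25%), 327 higher (4.01%) and 264 lower (3.24%), and 200 at 12 h (2.45%), 103 higher (1.26%) and 97 lower (1.19%). The count at 12 h was 124 without Ku70 library 24, 123 without library 25 and 42 in a fit of its 6 libraries alone. Of the 734 genes higher on the inducing carbon, 172 were also higher on AV at 36 h, which is 23.4% of the first list and 52.6% of the second, and 16 were lower there. Of the 363 lower genes, 93 were also lower on AV at 36 h, which is 25.6% and 35.2% of the lists, and 6 were higher. At 12 h 30 higher genes were shared (4.09% and 29.1%) and 52 lower genes (14.3% and 53.6%).

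Among the leading genes, the fold changes on AV at 36 h came near those on the inducing carbon for some and not for others. POX00089 was at 27399 to 33282 CPM in dClrB and 1077 to 1275 CPM in Ku70 on AV at 36 h (4.74, SE 0.92, edgeR adjusted p = 0.000315). POX09387 (5.63), POX01929 (5.99), POX09110 (4.47) and POX05696 (3.29) were called higher there too. POX01912 (1.36, edgeR adjusted p = 0.813), POX04369 (1.93, 0.0884) and POX01079 (0.79, 0.545) were not called, and POX05569 was too low there to be tested. Nor was POX05578 called, with 50.7 to 69.7 CPM in dClrB and 44.7 to 53.5 CPM in Ku70 (0.31, edgeR adjusted p = 0.409). Of the lower genes, POX06601 (-8.07) and POX01960 (-8.12) were called on AV at 36 h. POX02054 was at 881 to 1265 CPM in dClrB and 2976 to 3643 CPM in Ku70 (-1.55, edgeR adjusted p = 0.0912), so it was abundant in dClrB on AV and nearly absent from dClrB on the inducing carbon.

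The fold change on the inducing carbon at 24 h minus that on AV at 36 h was tested directly. The protocol names Avicel for both, so these sets of libraries differ by label in time and in the name of the carbon source, and by file in the kind of table, and the parts of these in any difference cannot be told apart. Of 8435 genes, 406 were called (4.81%), 203 in each direction. Of the 363 genes lower on the inducing carbon, 358 entered this test and 113 had a significantly larger fall there, of which 82 were not called lower on AV at 36 h. A further 62 were lower on AV at 36 h with no called difference. Of the 734 higher genes, 718 entered the test and 102 had a significantly larger rise on the inducing carbon, of which 96 were not called higher on AV at 36 h, while a further 166 were higher there with no called difference. Some called differences came mainly from AV, since 73 of the 203 positive ones were called lower in dClrB on AV at 36 h and 57 of the 203 negative ones were called higher there. For POX02054 the difference was -9.22 (SE 0.73, edgeR adjusted p = 6.74e-07), for POX07865 -7.91 (SE 0.86) and for POX07864 -7.58 (SE 0.82). Of the higher genes, POX05578 had the largest difference among those named, 6.28 (SE 0.72, edgeR adjusted p = 5.19e-05). Of the 13 listed genes, 12 had the more negative fold change on the inducing carbon, called or not. The difference was called for 5 of 9 cellulase and 2 of 4 xylanase genes, all in that direction, beside 2.41% of all genes tested. POX07535 was at -3.52 (SE 0.61) and POX06783 at -2.85 (SE 0.73). The mean summed cellulase level was 699 CPM in dClrB and 12121 CPM in Ku70 on AV at 36 h. On the inducing carbon it was 1029 CPM in dClrB and 83401 CPM in the 9 Ku70 libraries, a set without Ku70 8 to 10 because of their low cellulase counts. Those 3 had 236 to 290 CPM and Ku70 11 to 22 had 13149 to 53517 CPM. The Ku70 level on the inducing carbon thus depends on which libraries are used. With Ku70 8 to 10 added, 102 genes were called and none of the 13 listed genes (edgeR 0 of 9 and 0 of 4, also at an unadjusted p under 0.05), whereas POX02054 (-9.10), POX07865 (-7.69), POX07864 (-7.49) and POX05578 (6.52) were. Without dClrB library S on the inducing carbon 716 genes were called. In dClrB on AV at 24 h, for which no Ku70 libraries are used here, POX02054 was at 1624 to 2976 CPM, POX07865 at 964 to 1511 CPM and POX05578 at 56.8 to 101 CPM. POX00089 was at 51.1 to 6876 CPM in dClrB on AV at 24 h, below each of its values on the inducing carbon at 24 h and on AV at 36 h.

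**Figure D4:**
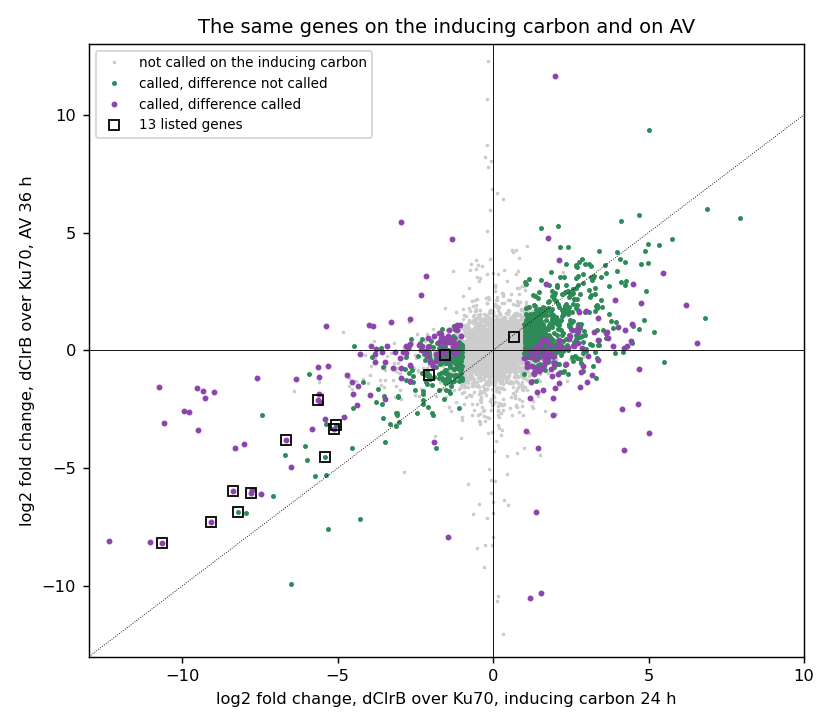
Log2 fold change of dClrB over Ku70 on the inducing carbon at 24 h (horizontal) and on AV at 36 h (vertical), 1 point per gene, with squares for the 13 listed genes. Of the 13 squares 12 lie above the dotted line of equal change, with a less negative value on AV at 36 h, and the purple points at the far left near a vertical value of -2 include POX02054, POX02605 and POX07865.

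Set against dPOX04420, which shares carbon source, time and kind of table and needs no Ku70 library, dClrB had 992 of 8554 genes called (11.6%), of which 499 were higher (5.83%) and the rest lower (5.76%). Of the cellulase genes 6 of 9 were lower and 1 higher. The summed cellulase level was 629, 1617 and 840 CPM in dClrB F, S and T and 13476 to 17960 CPM in dPOX04420. POX04786 had 6.83 to 41.8 CPM in dClrB and 3098 to 4857 CPM in dPOX04420 and fell by 7.70 (edgeR adjusted p = 0.000439). POX06835, at 312 to 985 CPM in dClrB and 129 to 166 CPM in dPOX04420, was higher by 2.06 (edgeR adjusted p = 0.0114). POX07535 was not called (0.47, edgeR adjusted p = 0.491). Of the xylanase genes, POX06783 (-3.23) and POX08484 (-2.81) were lower and POX08990 was higher (1.65, edgeR adjusted p = 0.0332). POX02054 (-10.65), POX06307 (-10.41) and POX02605 (-9.42) were lower, and POX05569 (8.21) and POX09387 (7.34) were higher. The count was 379, 373 and 369 without dPOX04420 library F, S or T.

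The 3 dClrB libraries did not depart from Ku70 by the same amount. Of the 734 higher genes, library F was the farthest from the Ku70 mean in 433, S in 127 and T in 174. Of the 363 lower genes, F was the farthest in 268, S in 33 and T in 62. F was the nearest to the Ku70 mean in 179 of the higher and 31 of the lower genes. Without F 769 genes were called (9.15%), 450 higher and 319 lower (3.8%), and 344 of the higher and 109 of the lower calls were not made. Picking genes by a call lost without F favours a large distance in F, so their distances are a description only. In those 344 genes the median distance from the Ku70 mean on the log2(CPM + 1) scale was 2.22 in F, 0.83 in S and 0.96 in T. POX06753 was such a gene, at 5755, 1266 and 1697 CPM in dClrB and 756 to 1342 CPM in Ku70 (1.58, edgeR adjusted p = 0.0105). Calls in the same direction without each dClrB library in turn were made for 578 genes, 342 higher and 236 lower. The genes named for the largest changes were picked from these.

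**Figure D5:**
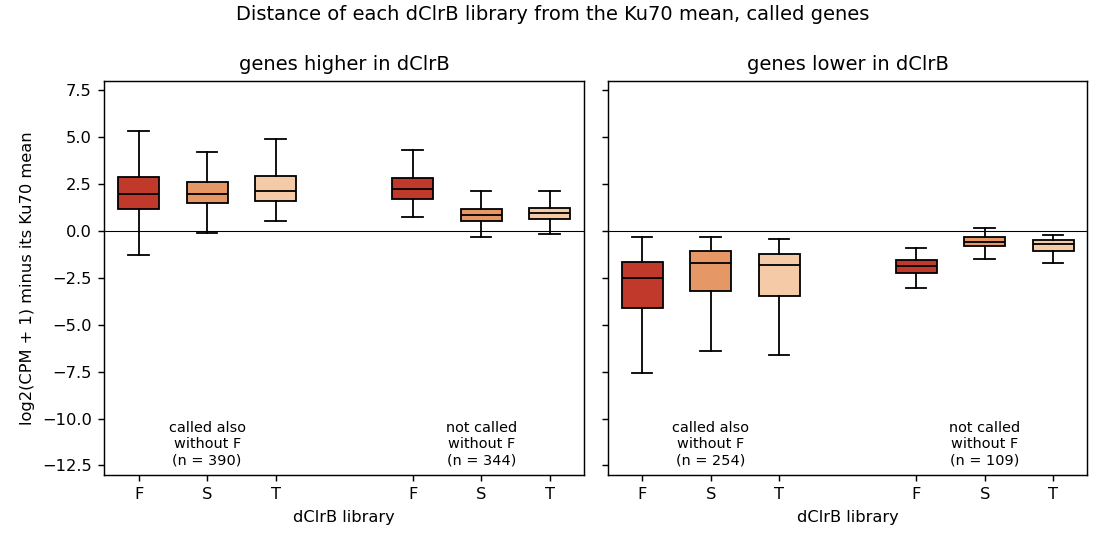
Distance of each dClrB library from the Ku70 mean on the log2(CPM + 1) scale, for the 734 genes called higher (left panel) and the 363 called lower (right panel), split by whether the call was also made without library F. Boxes give the median and quartiles, and whiskers reach to 1.5 times the interquartile range. F stands farther out than S and T in the genes not called without it, which the split itself favours.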

How the data were processed

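RNA-seq of Penicillium oxalicum mycelium, extracted with TRIzol per the labels' protocols, was used. The authors' tables give expected counts, which need not be whole, and FPKM values per gene, per the file headers. The submitters' processing notes name RSEM 1.2.12, DESeq2, Bowtie2 2.1.0 and BWA 0.7.10-r789. What each did, the build, the annotation and the handling of reads shared by similar or overlapping genes are not given in the sources used here. Whole numbers were made from the deposited expected counts by rounding, a shift of 0.00025% of a library or less, and genes missing from a table were taken as 0.

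edgeR 4.0.16 (R 4.3.3) with TMM scaling was fitted to genes averaging 1 CPM or more in a fit's libraries. The fits held 12 libraries (dClrB and Ku70), 6 (dClrB and dPOX04420), 48 (the transferred AV and wheat-bran time courses of 3 strains, for AV 12 h and 36 h) and 18 (the difference). The last fit left out 338 genes at 0 in all libraries of the AV and wheat-bran time courses. Tests were two-sided. Standard errors are the log2 fold change over the root of the F statistic. Alternatives were other controls, DESeq2 1.42.0, limma 3.58.1 on log2(FPKM + 1) and log2(FPKM + 0.1), DESeq2's size factors, no filter, each library left out, and a replicate block. The functions were tested on simulated data. Of 9863 identifiers as spelled, 0 matched the 9964 genes of assembly ASM172317v3.

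The groups, lists and named genes were chosen with earlier results of these data known. Named genes were the 13 listed genes, the 10 largest changes each way among genes called in one direction also without each dClrB library, with ranges apart and at least 20 CPM in the higher group, runs of 4 identifiers, neighbours of listed genes, genes deleted in other mutants, and the 10 leading genes by FPKM in each group. POX06753 and POX06051 are among the last. Intervals are exact and cover counting error only.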

Additional observations from a re-analysis of the deposited data

Results flagged for a closer look

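In 2 of 35 sets of 9 Ku70 values looked at, the libraries' totals and sums included, 1 library lay far from the others by Dixon's test, where chance gives about 1 in 20. POX06783 stood at 6157 CPM in Ku70 library 2, above the next value of 4199 CPM, and POX01079 stood at 2.55 CPM in the same library, above the next of 1.58 CPM. The POX01079 flag only just passed, with a gap over the range of 0.494 against a critical value of 0.493, and at a low level.

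The fold change on the inducing carbon differed from that on AV at 36 h, by edgeR's test of the difference, in 19 of 32 named genes tested, beside 4.81% of all genes. Most of these genes were named for large changes on the inducing carbon, or come from lists known to fall there, which favours such a difference, so the count is a description only. It was more negative in 16 and more positive in 3. Among the cellulase genes the difference was -1.77 for POX01166, -2.45 for POX04786, -2.38 for POX05570, -1.72 for POX05571 and -3.52 for POX07535. Among the xylanase genes it was -1.78 for POX00063 and -2.85 for POX06783. It was -4.30 for POX06601 and -2.99 for POX01960. These genes had only 6 and 2 counts in dClrB on the inducing carbon, so the sizes of these differences are uncertain. The 7 genes that were abundant in Ku70 8 to 10 and on glucose had differences of -9.22 (POX02054), -7.17 (POX02055), -7.47 (POX06307), -6.06 (POX06308), -7.37 (POX02605), -7.58 (POX07864) and -7.91 (POX07865). POX05578, POX04369 and POX05696 had differences of 6.28, 4.30 and 2.16. With Ku70 8 to 10 added 8 of the 19 were still called, these 7 and POX05578, and 11 were not, with edgeR adjusted p of 0.637 to 0.991 for the listed genes.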

How the results depend on the processing

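With the controls reduced to Ku70 F, S and T 691 genes were called on the inducing carbon, in place of 1097, and 646 with the letters F, S and T as a replicate block. The letters did not pair the samples, since same-letter deviations correlated at -0.06, -0.06 and -0.15. With Ku70 8 to 10 added, 5 cellulase and 1 xylanase genes were lower and 102 genes differed between the inducing carbon at 24 h and AV at 36 h, as given above. Counts without 1 library in turn were 769 to 1375 on the inducing carbon, 369 to 1452 against dPOX04420, 123 to 258 on AV at 12 h, 482 to 560 on AV at 36 h and 282 to 716 for the difference. The cellulase count stayed at 8 to 8 and the xylanase count at 4 to 4. The AV 12 h count was 42 in a fit of its 6 libraries alone. DESeq2 (1098), limma (1017 and 1025), DESeq2's size factors (1117), no filter (1127), all 24 Ku70 libraries (1026) and Ku70 2 to 7 alone (782) gave counts within 1.5 times. Of 100 genes followed over 22 settings, 89 were called and none of those changed direction (0 of 1958 values), while 165 values missed the threshold. The genes that changed direction were not called at first. POX01105 was at -0.14 with all 24 Ku70 libraries, -0.086 with F, S and T and -0.11 with the block. POX02968 was at -0.12 with Ku70 8 to 10 and -0.72 with all 24. POX01764 was at -1.64 with all 24 and -0.20 with Ku70 2 to 7, and POX01179 at 0.13 with Ku70 8 to 10. Without 1 library in turn the log2 fold change was -0.074 to 0.39 for POX01167, -0.40 to 0.31 for POX01179, -0.95 to 0.80 for POX01764 and -1.31 to 3.66 for POX08454. The causes were not tested. Depth limits the genes at a few counts in dClrB, where fold changes are wide.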

Other observations

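In dClrB grown for 72 h on Avicel without transfer (n = 3), the cellulase gene POX06835, which was not called on the inducing carbon, stood at 1319 to 1473 CPM of a summed cellulase level of 1698 to 2064 CPM. POX04786 stood there at 40.9 to 113 CPM. POX03930, at 1.91 to 30.5 CPM in dClrB on the inducing carbon, stood at 315 to 439 CPM in the untransferred dClrB libraries. POX02054, POX06307 and POX07865, with at most 11.6 CPM in dClrB on the inducing carbon, stood there at 193 to 263, 117 to 267 and 586 to 909 CPM. These levels have no Ku70 libraries of the same growth beside them here and were not tested.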
